A study of Mus musculus with 39 samples.

Results

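Microglia of wildtype mice given LPS on 4 consecutive days were compared with microglia of wildtype mice given LPS once. The comparison used 15 of the 39 libraries of the series, 6 after 4 injections (4xLPS) and 9 after 1 injection (1xLPS), chosen by genotype and treatment label alone. Both groups were female C57BL/6J wildtype littermates of APP23 hemizygous mice. LPS, lipopolysaccharide from Salmonella enterica serotype typhimurium, was injected intraperitoneally at 500 µg/kg when the mice were 3 months old. The 1xLPS mice received vehicle (PBS) on the other 3 days, so the groups differed in the number of LPS doses and not in the number of injections. Microglia were sorted at 9 months, and RNA from 10000 sorted cells was amplified for sequencing. The values therefore describe what differed between the regimens months after the last injection, not the acute response. Levels in 9 wildtype PBS libraries, and in 4 APP23 4xLPS and 5 APP23 1xLPS libraries, are given for orientation where they bear on a gene, and 6 APP23 PBS libraries entered the shared estimate of the spread. PBS mice received vehicle on all 4 days. APP23 mice carry a mutant human APP transgene under a Thy-1 promoter and form amyloid plaques with age.

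Microglia are the resident macrophages of the brain and detect LPS through the receptor Tlr4 with its partners Cd14 and Ly96, which signal through adaptors and kinases to NF-kB, AP-1 and interferon regulatory factors. A first exposure can change how macrophages respond to a later stimulus: a weaker later response is called tolerance and a stronger one training. In mouse microglia, repeated peripheral LPS is known as a tolerizing regimen and a single dose as a training one, and long-lived chromatin marks are thought to carry such memory. The comparison asks whether the regimens left microglia of wildtype mice with different expression programmes.

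Values are log expression levels that the authors normalized and corrected by surrogate variable analysis. Their base is not stated and was read as 2, so fold levels below rest on that reading. Every difference below is 4xLPS minus 1xLPS on that scale. The corrected values ran from 3.46 to 13.8, and their mean per library was between 9.00 and 9.01 in all 15 libraries. Libraries of the same group correlated with each other at 0.999158 to 0.999617 across entries. The sequencing depth behind the values is unknown. All 10 microglia markers, among them Csf1r, Cx3cr1, P2ry12 and Tmem119, were in the table, with a mean per library of 12.5 to 12.6 after 4xLPS and 12.5 to 12.6 after 1xLPS. Markers of other cells were sparser, with 5 of 8 border macrophage, 2 of 10 monocyte and neutrophil, 5 of 10 dendritic cell and 4 of 10 oligodendrocyte markers listed. The mean of the border macrophage markers was 8.04 to 8.19 after 4xLPS and 8.10 to 8.22 after 1xLPS, and it overlapped between groups. Of these 5 markers 2 had a positive difference, Ms4a7 (0.043) and Stab1 (0.0023), and Pf4 was at -0.013. Mrc1 and F13a1 had the most negative differences, -0.15 (limma adjusted p = 0.152) and -0.13 (adjusted p = 0.248). Of the 5 measured dendritic cell markers 3 were positive, with Cd209a at 0.13. No marker of any of these cell types passed the test, and their part in the results below was not tested. In these bulk samples, fewer cells of a type and less RNA per cell cannot be told apart.

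The regimens left few differences, and all were small. Of the 10915 table entries, 72 (0.66%) passed an adjusted p of 0.05 in limma fitted over all 39 libraries, 35 of them higher after 4xLPS (0.321%) and 37 lower (0.339%). The differences among these ran from 0.019 to 0.17 in size with a median of 0.087. The largest rise, of the glycerol kinase gene Gk, was a 1.12-fold level, and the largest fall, of the kinase gene Hipk2, a 0.887-fold level. The 15 libraries overlapped between groups for 51 of the 72, and 21 had no overlap, 9 lying wholly above and 12 wholly below the 1xLPS libraries. Of all entries, 47 (0.431%) had no overlap, 27 above (0.247%) and 20 below (0.183%). The 95% interval of the difference lay within 0.1 on either side of 0 for 89.6% of entries, whatever their call. These intervals use the spread with 33 degrees of freedom and may be too narrow, as the p-values may be too small.

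The count of calls rested on how the spread was estimated. The corrected table holds residual variation in 24 directions around the 6 group means where 33 would be free, and a fit with 24 residual degrees of freedom left 2 entries (0.0183%), Sumf1 higher and Cds1 lower. The adjusted p of the other 70 was 0.0531 to 0.313 in that fit. An exact permutation test over all 5005 ways of choosing 6 of the 15 libraries, two-sided, gave 25 entries its smallest possible p of 2e-04, 11 of them among the 72, and left no entry past an adjusted p of 0.05 (smallest 0.0872). Before adjustment 1520 entries had an exact p under 0.05, and 1614 (14.8%) had an unadjusted limma p under 0.05. Leaving out a single library took the total from 72 to between 26, without 4xLPS library 6, and 88. Without 1xLPS library 4 it was 36 and without 4xLPS library 1 it was 38. No called gene changed direction in any of these fits, but there was little room for that. The fit with 24 degrees of freedom uses the same group means, and each of the others left out 1 library.

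**Figure D1:**
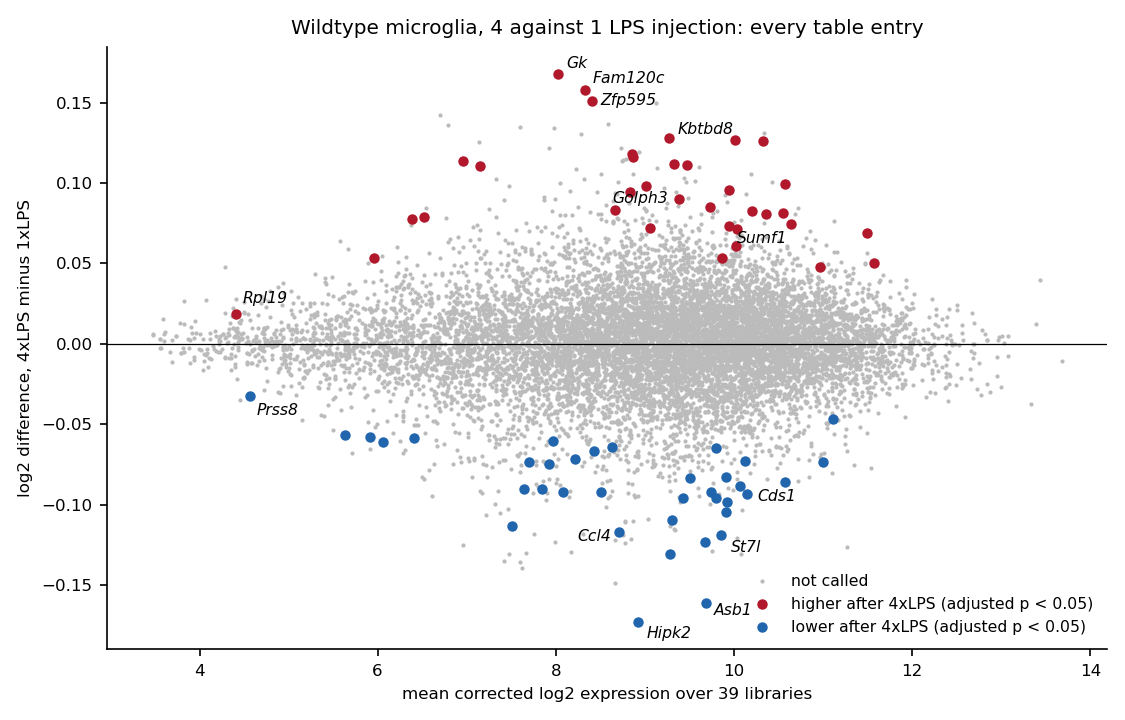
Difference between 4xLPS and 1xLPS wildtype microglia (y axis, log2) against the mean corrected level over 39 libraries (x axis, log2) for every table entry. Red points are the 35 entries higher and blue points the 37 entries lower after 4xLPS at adjusted p under 0.05 with 33 degrees of freedom, and grey points are the rest. All differences lie within 0.173 of 0.

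Sumf1 was the gene with the smallest p. It encodes the formylglycine-generating enzyme of the endoplasmic reticulum, which activates all sulfatases, including those that degrade sulfated glycans in lysosomes. It lies on chromosome 6 from 108107028 to 108185582 on the minus strand (GRCm38). Its level in the 4xLPS libraries was 9.97 at the lowest, 10.00 at the median and 10.01 at the highest, against 9.90, 9.92 and 9.94 in the 1xLPS libraries. Every 4xLPS library lay above every 1xLPS library. The difference was 0.073 (SE 0.0096, 95% interval 0.054 to 0.093, limma adjusted p = 4.51e-05, and 0.0111 with 24 degrees of freedom), a 1.05-fold level. Its exact permutation p was 2e-04, the smallest those permutations can give. Over all alternative fits its adjusted p was 1.94e-05 to 0.0259. The wildtype PBS libraries ranged from 9.91 to 9.96, overlapping the 1xLPS libraries and lying below every 4xLPS library.

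Cds1 was the lower gene with the smallest p. It encodes CDP-diacylglycerol synthase, which makes the lipid precursor of phosphatidylinositol, and lies on chromosome 5 from 101765130 to 101823858 on the plus strand. The 4xLPS libraries ranged from 10.05 over a median of 10.08 to 10.13, against 10.14, 10.17 and 10.25 in the 1xLPS libraries. No library of one group reached the other. The difference was -0.093 (SE 0.0143, 95% interval -0.12 to -0.064, limma adjusted p = 0.000621, and 0.0335 with 24 degrees of freedom), its exact permutation p was 2e-04, and its adjusted p over all alternative fits was 0.000232 to 0.0335. Wildtype PBS libraries lay between 10.15 and 10.21, within the 1xLPS range and above all 4xLPS libraries.

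Promoter windows of these genes are shown because they, with Golph3 and St7l, head the ranking by p. Each window runs from 250 bases before to 50 bases after the RefSeq gene start (GRCm38.p6), 5′ to 3′ on the gene's strand, with capitals for an E-box (CACGTG), a cAMP response element (CRE, TGACGTCA), a GC box (GGGCGG) or a CCAAT box (CCAAT) on either strand.
Sumf1: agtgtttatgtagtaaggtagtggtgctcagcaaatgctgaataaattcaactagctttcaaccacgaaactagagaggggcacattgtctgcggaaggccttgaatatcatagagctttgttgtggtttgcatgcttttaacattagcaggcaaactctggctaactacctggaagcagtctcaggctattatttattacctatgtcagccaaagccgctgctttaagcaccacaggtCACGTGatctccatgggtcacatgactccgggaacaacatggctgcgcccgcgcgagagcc
Cds1: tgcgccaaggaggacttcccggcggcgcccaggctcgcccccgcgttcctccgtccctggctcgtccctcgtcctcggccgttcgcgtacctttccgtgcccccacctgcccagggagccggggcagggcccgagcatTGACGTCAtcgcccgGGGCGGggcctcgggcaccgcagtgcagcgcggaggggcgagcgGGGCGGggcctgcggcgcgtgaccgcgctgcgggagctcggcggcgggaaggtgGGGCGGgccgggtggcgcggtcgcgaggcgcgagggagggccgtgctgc
Golph3: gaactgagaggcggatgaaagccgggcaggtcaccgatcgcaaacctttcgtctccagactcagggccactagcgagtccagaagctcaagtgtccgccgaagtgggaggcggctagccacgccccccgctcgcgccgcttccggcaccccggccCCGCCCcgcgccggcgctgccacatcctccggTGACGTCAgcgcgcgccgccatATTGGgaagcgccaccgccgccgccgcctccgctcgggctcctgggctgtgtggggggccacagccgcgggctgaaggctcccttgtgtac
St7l: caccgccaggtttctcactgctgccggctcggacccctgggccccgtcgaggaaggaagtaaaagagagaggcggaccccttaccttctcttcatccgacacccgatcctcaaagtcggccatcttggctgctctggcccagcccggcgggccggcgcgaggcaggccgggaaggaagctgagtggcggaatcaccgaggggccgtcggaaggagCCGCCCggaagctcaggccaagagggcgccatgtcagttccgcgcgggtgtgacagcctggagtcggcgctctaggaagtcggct
The Sumf1 window holds an E-box that begins 11 bases before the start and none of the other 3 motifs. The Cds1 window holds a CRE and 3 GC boxes, the Golph3 window a CRE, a GC box and a CCAAT box, and the St7l window a GC box. An E-box was found in the windows of 8 of 29 genes higher after 4xLPS and of 1 of 24 lower genes with a window, and in 12.3% of the 8514 table genes with one. A CRE was found in 4 of 29 higher and 1 of 24 lower genes and in 3.79% of table genes. For a GC box these values were 22 of 29, 19 of 24 and 69.3%. For a CCAAT box they were 10 of 29, 10 of 24 and 42.8%. Other motifs were searched too. In the same order, the ETS core had 2, 2 and 10.2%, and the PU.1 site 1, 1 and 3.89%. The kB site had 0, 1 and 1.98%, and the NRF1 site 0, 0 and 2.57%. The CLEAR element, a longer motif that contains the E-box, had 0, 0 and 0.916%. The E-box was thus 1 of several motifs looked at, and no excess was tested. These letter matches are descriptions of the windows and do not show binding.

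Of the 67 called genes with a name, 17 passed in all 15 fits that left out a library. Those higher after 4xLPS were Sumf1, Golph3, Gk, Cln8, Rpl19, Kbtbd8, Zfp595 and Siae. Those lower were Cds1, St7l, Hipk2, Klk9, Zzz3, Prss8, Asb1, Mtpn and Chst15. The remaining 50 lost their call in at least 1 such fit. Of the genes described below, Susd6, Ubr2, Fancm, Pcf11, Alox5, Mios and Ubn1 lost it in 1 to 2 of the 15 fits. Usp2, Chst7, Trdmt1, Trim36, Cmtr2, Zfp36l1, Atg14, Slc9a9, Gltscr1 and Zkscan5 lost it in 5 to 8, and Smarcad1, Zfp408, Ripk3, Ccl4, Abcb1b, Rnf31 and Magi1 in 9 to 13. The libraries whose removal ended the most of the 72 calls were 4xLPS 6 (46 calls), 4xLPS 1 (40) and 1xLPS 4 (37). The values of the genes described below come from the fit with 33 degrees of freedom, and, apart from Sumf1 and Cds1, none of them passed with 24.

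**Figure D2:**
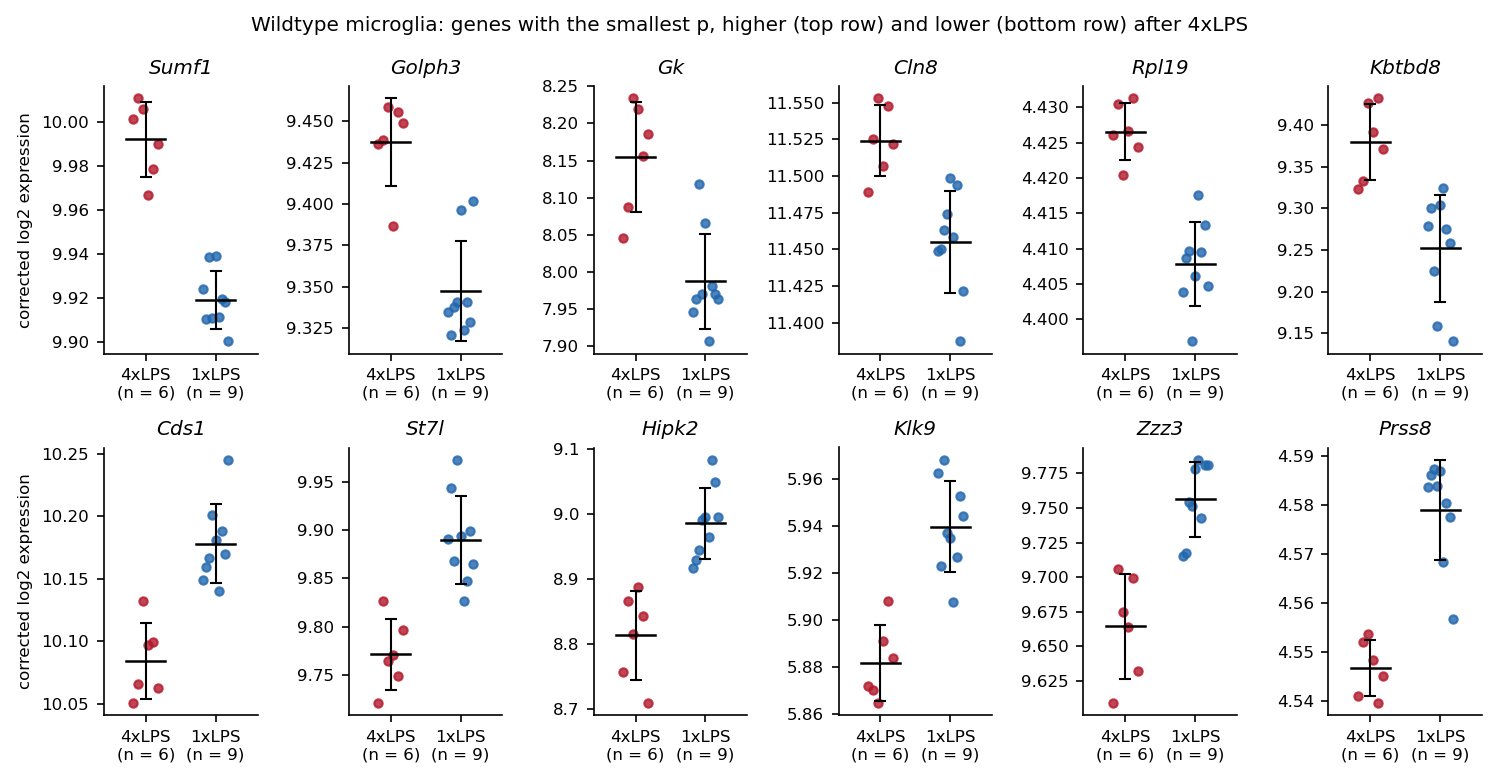
Corrected log2 expression (y axis) in each wildtype library after 4xLPS (red, left, n = 6) and 1xLPS (blue, right, n = 9) for the 6 higher (top row) and 6 lower (bottom row) named genes with the smallest p. Bars are the group mean and 1 SD, and each panel has its own axis that does not start at 0. Sumf1, Rpl19, Cds1, Hipk2, Zzz3 and Prss8 have no overlap between groups.

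Golph3, a Golgi protein that binds phosphatidylinositol 4-phosphate (chromosome 15, 12321450 to 12351591, plus strand), was at 9.39, 9.44 and 9.46 (lowest, median, highest) in 4xLPS libraries, against 9.32, 9.34 and 9.40 in 1xLPS libraries. Only the lowest 4xLPS library fell within the 1xLPS range. The difference was 0.090 (SE 0.0147, limma adjusted p = 0.00148, 0.0531 with 24 degrees of freedom). Cln8, a cargo receptor that carries newly made lysosomal enzymes out of the endoplasmic reticulum, was at 11.49, 11.52 and 11.55 after 4xLPS and at 11.39, 11.46 and 11.50 after 1xLPS (difference 0.069, adjusted p = 0.00834). PBS libraries ranged from 11.48 to 11.56, a range that holds every 4xLPS library. Siae, a sialic acid esterase of lysosomes (0.081, adjusted p = 0.0163), Slc9a9, a sodium-proton exchanger of endosomes (0.050, adjusted p = 0.037), and Atg14, a subunit of the lipid kinase complex that starts autophagy (0.075, adjusted p = 0.037), were also higher. In the lysosome list itself, none of 35 measured members passed in either direction, beside 0.66% of all entries called. Of these 35 members 19 had a positive difference, and their median was 0.0022 beside 0.00087 over all entries.

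Gk, which phosphorylates glycerol for lipid synthesis and energy use (chromosome X, 85701937 to 85776819, minus strand), had the largest difference of the called genes that were higher. Its level was 8.05, 8.17 and 8.23 after 4xLPS against 7.91, 7.97 and 8.12 after 1xLPS, and 7.92 to 8.09 in PBS libraries. The 2 lowest 4xLPS libraries lay within the 1xLPS range. The difference was 0.17 (SE 0.0306, limma adjusted p = 0.00509, exact permutation p = 0.0012). Chst7, which adds sulfate to chondroitin, was higher (0.085, adjusted p = 0.0267), while Chst15, which adds the further sulfate that makes chondroitin sulfate E, was lower. Chst15 was at 9.78, 9.84 and 9.90 after 4xLPS and at 9.87, 9.95 and 10.02 after 1xLPS (difference -0.10, SE 0.0213, adjusted p = 0.0124).

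Also higher after 4xLPS were Ubn1, a subunit of the HIRA histone chaperone complex (0.13, limma adjusted p = 0.0242), Smarcad1, a chromatin remodeller (0.096, adjusted p = 0.039), Pcf11, a factor for cleavage and termination of transcripts (0.082, adjusted p = 0.0219), and the DNA repair translocase gene Fancm (0.11, adjusted p = 0.0219). Among the lower genes were Hipk2, Zzz3, Gltscr1, Cmtr2 and Trdmt1. Hipk2, a nuclear kinase that phosphorylates transcription factors (chromosome 6, 38694390 to 38876165, minus strand), was at 8.71, 8.83 and 8.89 after 4xLPS against 8.92, 8.99 and 9.08 after 1xLPS, with PBS libraries between 8.83 and 9.00. The groups did not overlap, and PBS libraries reached into both. Zzz3, a subunit of the ATAC histone acetyltransferase complex, was at 9.61, 9.67 and 9.71 after 4xLPS and at 9.71, 9.75 and 9.78 after 1xLPS (-0.092, SE 0.017, adjusted p = 0.00552). Gltscr1, a subunit of a BAF remodelling complex, differed by -0.12 (adjusted p = 0.0397). The cap methyltransferase gene Cmtr2 differed by -0.11 (adjusted p = 0.0381) and the tRNA methyltransferase gene Trdmt1 by -0.11 (adjusted p = 0.0351). The mean of Trdmt1 was 7.45 in PBS libraries, 7.45 after 4xLPS and 7.56 after 1xLPS. In the same order, means were 9.29, 9.25 and 9.36 for Cmtr2 and 9.75, 9.55 and 9.68 for Gltscr1.

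Of 29 histone methyltransferases and demethylases none passed, beside 0.66% of all entries called, 12 were positive, and the median was -0.0077. Of 303 zinc finger genes with a Zfp symbol 1 was higher and 2 were lower, beside 0.321% and 0.339% of all entries. Zfp595 was higher (0.15, adjusted p = 0.0121), and Zfp408 (-0.13, adjusted p = 0.0397) and Zfp36l1 (-0.088, adjusted p = 0.0342) were lower. The mean of Zfp408 was 9.18 in PBS libraries, 9.25 after 4xLPS and 9.38 after 1xLPS, so 4xLPS was nearer PBS. For Zfp36l1 these means were 10.08, 9.99 and 10.08. Over the 72 called entries, the PBS mean lay nearer the 1xLPS mean for 57 and nearer the 4xLPS mean for 15. The median of the 303 was 0.0027. Zfp36l1 differs from the others in binding AU-rich messenger RNA, which it targets for decay. Zfp595 belongs to a large family of similar genes between which reads can be split, so its value is uncertain: its 4xLPS libraries were at 8.45, 8.46 and 8.64 and its 1xLPS libraries at 8.27, 8.32 and 8.43.

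Asb1, a substrate adaptor with a SOCS box (chromosome 1, 91540544 to 91559589, plus strand), was at 9.51, 9.59 and 9.68 after 4xLPS and at 9.68, 9.76 and 9.82 after 1xLPS. The highest 4xLPS value lay just below the lowest 1xLPS value, and the difference was -0.16 (SE 0.0308, limma adjusted p = 0.00705). Kbtbd8, an adaptor of the Cul3 ubiquitin ligase, was at 9.32, 9.38 and 9.43 after 4xLPS and at 9.14, 9.28 and 9.32 after 1xLPS, with PBS libraries between 9.15 and 9.24, inside the 1xLPS range (difference 0.13, SE 0.0256, adjusted p = 0.0106). These were the 2 called genes of 31 measured ubiquitin ligase adaptors, whose median was -0.0038, beside 0.66% of all entries called. Of 33 Trim genes 1, Trim36, was higher (0.061, adjusted p = 0.0326), beside 0.321% of all entries higher. Ubr2, a ligase for N-terminal degradation signals (0.10, adjusted p = 0.0219), and the deubiquitinase gene Usp2 (0.048, adjusted p = 0.0292) were higher. Rnf31, the catalytic subunit of the complex that builds linear ubiquitin chains in NF-kB signalling, was lower, at 10.07, 10.08 and 10.10 after 4xLPS and at 10.11, 10.16 and 10.20 after 1xLPS (-0.073, adjusted p = 0.0375).

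The lowest-level calls need separate reading. Rpl19 was the 1 called gene of 72 measured cytosolic ribosomal proteins, beside 0.66% of all entries called. It differed by 0.019 (SE 0.00367, limma adjusted p = 0.00834) at a mean level of 4.41, close to the bottom of the table. Ribosomal protein genes have many near-identical copies in the genome, so this value is uncertain. The serine protease genes Klk9 (-0.058, adjusted p = 0.00509) and Prss8 (-0.032, adjusted p = 0.00611) were called at levels near 5.9 and 4.6. Of the 72 called entries, 18 (25%) had a mean level under the lower quartile of 8.08.

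**Figure D3:**
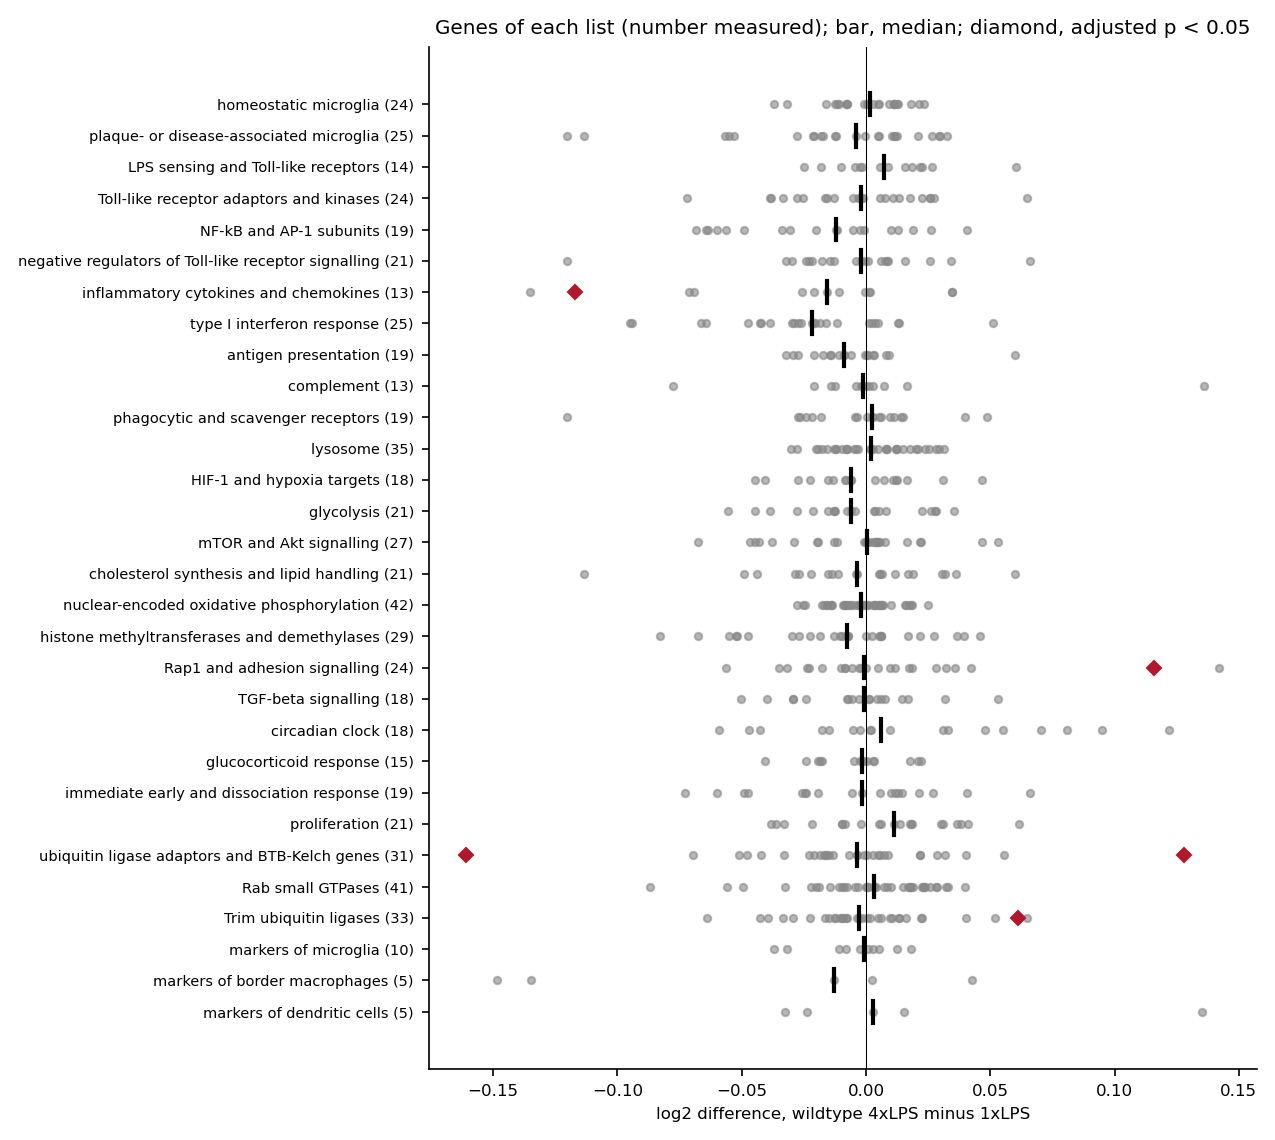
Differences between 4xLPS and 1xLPS wildtype microglia (x axis, log2) for the measured genes of each list (rows, number measured in brackets). Grey circles are genes that did not pass the test, red diamonds are genes at adjusted p under 0.05, and black bars are list medians. The LPS sensing, adaptor and negative regulator lists have no red diamond, and the cytokine list has 1, Ccl4.

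Among LPS receptors and their partners, no gene passed, beside 0.66% of all entries called. Of 14 measured members of that list, 8 had a positive difference, and the median was 0.0071. Tlr4, the LPS receptor, was at 11.80, 11.81 and 11.87 after 4xLPS and at 11.73, 11.82 and 11.85 after 1xLPS (0.0087, 95% interval -0.019 to 0.036). Its wildtype PBS libraries were at 11.83 to 11.91, all above the medians of both LPS groups. Cd14, which hands LPS to the receptor, was at 11.02, 11.05 and 11.09 in both groups, to 2 decimals (-0.0023, 95% interval -0.026 to 0.021). The groups overlapped for both genes.

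Downstream of the receptors, none of 24 measured adaptors and kinases passed, beside 0.66% of all entries called, with 10 positive and a median of -0.0021. None of 19 NF-kB, AP-1 and related transcription factors passed either, with 5 positive (26.3%) and a median of -0.012. Nfkb2, the precursor of the p52 subunit, had the smallest p of these (-0.064, limma adjusted p = 0.0919). None of 21 negative regulators of the pathway passed, with 9 positive and a median of -0.0021. Socs3, an inhibitor of cytokine receptor signalling, differed by 0.066 (95% interval -0.0052 to 0.14, adjusted p = 0.38), Nfkbia, the inhibitor of NF-kB, by -0.030 (-0.062 to 0.0021, adjusted p = 0.377), and the ubiquitin-editing enzyme gene Tnfaip3 by -0.014 (-0.068 to 0.039, adjusted p = 0.848). Over all entries, 51.5% of differences were positive and the median was 0.00087.

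Of 13 measured inflammatory cytokines and chemokines, 1 was lower and none higher, beside 0.339% of all entries lower and 0.321% higher, with 4 positive and a median of -0.016. The lower gene was Ccl4, a chemokine that attracts immune cells (chromosome 11, 83662584 to 83664683, plus strand). Its level was 8.52, 8.62 and 8.69 after 4xLPS and 8.65, 8.71 and 8.79 after 1xLPS, with PBS libraries at 8.65 to 8.86. The difference was -0.12 (SE 0.0288, limma adjusted p = 0.0438, 0.292 with 24 degrees of freedom; exact permutation p = 0.0004). Its neighbour Ccl3, a chemokine of the same family, was at 8.83, 8.85 and 8.92 after 4xLPS, 8.88, 8.92 and 9.00 after 1xLPS and 8.90 to 9.03 in PBS libraries (-0.069, adjusted p = 0.105). Tnf (-0.016, 95% interval -0.091 to 0.059) and Il1b (-0.011, -0.086 to 0.065) did not pass. Cxcl10 had the largest difference of the list, -0.14, and an adjusted p of 0.345.

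None of 25 measured type I interferon response genes passed, beside 0.66% of all entries called. Their median was -0.022 and 7 (28%) were positive, against 51.5% of all entries. Those with the most negative differences were the antiviral genes Mx1 (-0.095, limma adjusted p = 0.199) and Oasl2 (-0.094, adjusted p = 0.227), and the smallest p was that of Stat2, the interferon signal transducer (-0.066, adjusted p = 0.0805). Antigen presentation genes had a median of -0.0090 with 7 of 19 positive, and complement genes a median of -0.0010 with 5 of 13 positive, none past the test. C3, the central complement component, had a difference of 0.14 and an adjusted p of 0.137.

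Alox5, which makes leukotrienes, was at 10.47, 10.52 and 10.59 after 4xLPS and at 10.53, 10.62 and 10.64 after 1xLPS (-0.086, SE 0.0189, limma adjusted p = 0.0224). Ripk3, the kinase of necroptosis, was higher after 4xLPS, at 8.65, 8.69 and 8.74 against 8.53, 8.62 and 8.68 after 1xLPS (0.083, adjusted p = 0.0431). Abcb1b, a drug efflux transporter, was lower with no overlap (9.39 to 9.47 after 4xLPS, 9.48 to 9.57 after 1xLPS, adjusted p = 0.046). Magi1, a scaffold of cell junctions, had a difference of 0.12 and an adjusted p of 0.0499. It was the 1 called gene of 24 in the Rap1 list, beside 0.66% of all entries called.

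No microglial identity gene and no gene of plaque-associated microglia passed, beside 0.66% of all entries called. At that share a list this short can lack a call without differing from the table. None of 24 homeostatic genes passed, and the largest difference in that list was -0.037, of Cx3cr1. P2ry12, the purinergic receptor of resting microglia, was at 12.80, 12.84 and 12.93 after 4xLPS and at 12.77, 12.84 and 12.96 after 1xLPS. Its difference was 0.0026 (95% interval -0.042 to 0.047), that of Tmem119 -0.032 (-0.081 to 0.018) and that of the fractalkine receptor gene Cx3cr1 -0.037 (-0.086 to 0.012). None of 25 genes of plaque-associated microglia passed, with 11 positive. The largest differences in that list were those of the receptor gene Axl (-0.12, limma adjusted p = 0.193) and the lipase gene Lpl (-0.11, adjusted p = 0.391). Trem2, the lipid-sensing receptor (0.011, -0.016 to 0.039), and Apoe, the lipid carrier (0.012, -0.060 to 0.083), had intervals on both sides of 0, and so had Clec7a (-0.055, -0.12 to 0.014), Cst7 (-0.053, -0.14 to 0.037) and Itgax (-0.012, -0.092 to 0.068).

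Metabolic lists showed no called gene, beside 0.66% of all entries called, a share at which short lists can lack a call. Hif1a, the hypoxia-inducible transcription factor, was at 10.79, 10.84 and 10.87 after 4xLPS and at 10.73, 10.80 and 10.84 after 1xLPS. Its difference was 0.047 (SE 0.0155, 95% interval 0.015 to 0.078, limma adjusted p = 0.126, exact permutation p = 0.0168 before adjustment), so it did not pass over the table. The list of HIF-1 subunits, regulators and hypoxia targets, which includes Hif1a, had a median of -0.0060 with 8 of 18 positive. Glycolysis genes had a median of -0.0062 with 9 of 21 positive, and nuclear-encoded oxidative phosphorylation genes a median of -0.0021 with 18 of 42 positive. Genes of mTOR and Akt signalling had a median of 0.00025 with 15 of 27 positive, and the single-gene call of Mios, a subunit of the GATOR2 complex upstream of mTORC1, was outside that list (9.01 to 9.12 after 4xLPS, 8.92 to 9.00 after 1xLPS, adjusted p = 0.0227). Circadian clock genes had a wider range, with Nr1d1, a clock repressor, at 0.12 (adjusted p = 0.201) and Cry1 at -0.059 (adjusted p = 0.105). None passed, and of 18 measured clock genes 11 were positive, with a median of 0.0059. At an unadjusted limma p under 0.05, 5 were higher and 2 lower, beside 14.8% of all entries in either direction. The cause was not tested. Of immediate early and dissociation genes none of 19 passed, with a median of -0.0017.

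The authors grouped genes into co-expression modules, named by colours, on the libraries of the whole series. The blue (12), red (8) and pink (7) modules held 27 of the 35 higher genes and none of the 37 lower ones. Together they have 21.7% of the table genes with a module entry. The black module, with 4.26% of those table genes, held 4 lower genes and no higher one. The modules were built on these same libraries, so their genes move together by construction. The red module, of 732 table genes, had the most one-sided differences, 82.5% of them positive with a median of 0.018. Its mean per library was 9.096, 9.103 and 9.111 after 4xLPS (lowest, median, highest) and 9.070, 9.080 and 9.094 after 1xLPS, and 9.061 to 9.083 in PBS libraries. The 4xLPS libraries lay above all 1xLPS libraries. In APP23 mice 24.6% of the red module's differences were positive, with a median of -0.020. Among the genes that the authors' deposited table ties most closely to the red module, Susd6 was called (0.081, adjusted p = 0.0219), and Ppp3ca, a calcineurin subunit, was not (0.032, adjusted p = 0.161). The blue module had 73% positive and the pink module 72.7% positive differences, with overlapping libraries. In the blue module 4xLPS library 4 stood apart, at 8.645 against 8.605 to 8.610 in the other 5 4xLPS libraries, and the difference of group means was 0.016 with it and 0.00964 without it. The brown module has Csf1r and Fcrls among its closest genes in the authors' deposited table. It held 1 higher and 7 lower genes among 1296 (0.617%, beside 0.66% of all entries), with 40.4% positive. Mean levels of the green module were 9.118 to 9.140 after 4xLPS and 9.131 to 9.154 after 1xLPS, with 34.7% of its differences positive.

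**Figure D4:**
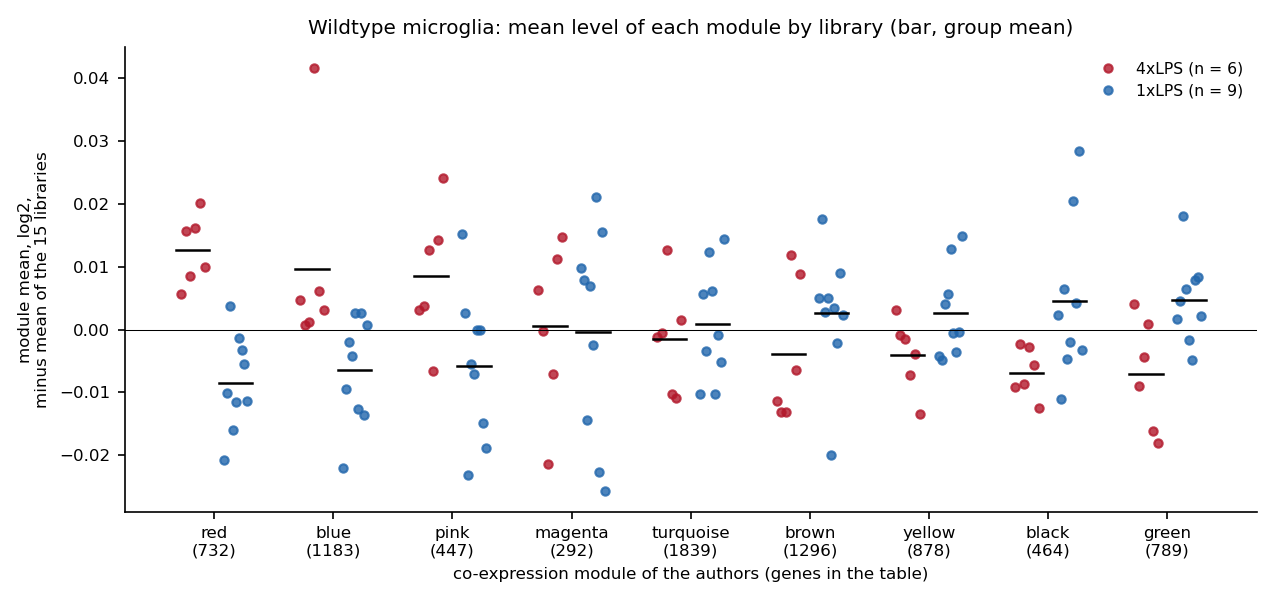
Mean level of each of the authors' 9 co-expression modules in each wildtype library (y axis, log2, minus the mean of the 15 libraries), after 4xLPS (red, left) and 1xLPS (blue, right). Black bars are group means and numbers under the colour names are genes in the table. In the red module every 4xLPS point lies above every 1xLPS point.

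The same contrast in APP23 microglia, which shares no library with the wildtype one, had 162 called entries (1.48%). Of the 72 entries called in wildtype mice, 36 had a difference of the same sign in APP23 mice and 36 of the opposite sign. The same-sign share of 50% compares with 48.2% over all entries. None of the 72 was called in the same direction in APP23 mice, and 3 were called in the opposite one, Alox5, Zkscan5 and Fancm. A test of the difference between genotypes passed for 191 entries (1.75%) over the table, 29 of them among the 72, and for 1 (0.00916%), Sumf1, with 24 degrees of freedom. Entries called in wildtype mice were chosen on one side of that test, so the count of 29 is a description.

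Sumf1 in APP23 microglia was at 9.919, 9.953, 9.901 and 9.913 after 4xLPS and at 9.966, 9.957, 9.942, 9.980 and 9.969 after 1xLPS. There the 4xLPS libraries were the lower ones, with a single 4xLPS library inside the 1xLPS range (-0.041, SE 0.0122, limma adjusted p = 0.0701). The wildtype difference exceeded the APP23 one by 0.11 (adjusted p = 9.6e-05, 0.0191 with 24 degrees of freedom). Alox5 in APP23 microglia was at 10.646, 10.579, 10.638 and 10.610 after 4xLPS and at 10.502, 10.545, 10.517, 10.526 and 10.516 after 1xLPS, so that every 4xLPS library was higher. Its difference there was 0.097 (adjusted p = 0.0342), against -0.086 in wildtype mice. Zkscan5, a zinc finger gene, was at 9.223, 9.178, 9.372 and 9.324 after 4xLPS and at 9.401, 9.344, 9.444, 9.430 and 9.467 after 1xLPS in APP23 mice, with a single library of overlap on either side. It differed by -0.14 in APP23 mice (adjusted p = 0.0307) and by 0.11 in wildtype mice (adjusted p = 0.0397). Fancm differed by -0.13 in APP23 mice (adjusted p = 0.034) and by 0.11 in wildtype mice. Cds1 had differences of one sign in both genotypes, -0.049 (SE 0.0182, adjusted p = 0.165) in APP23 mice and -0.093 in wildtype mice, and the test between genotypes did not pass (adjusted p = 0.322). Rnf31 was at -0.077 in APP23 mice (adjusted p = 0.0636) and -0.073 in wildtype mice.

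**Figure D5:**
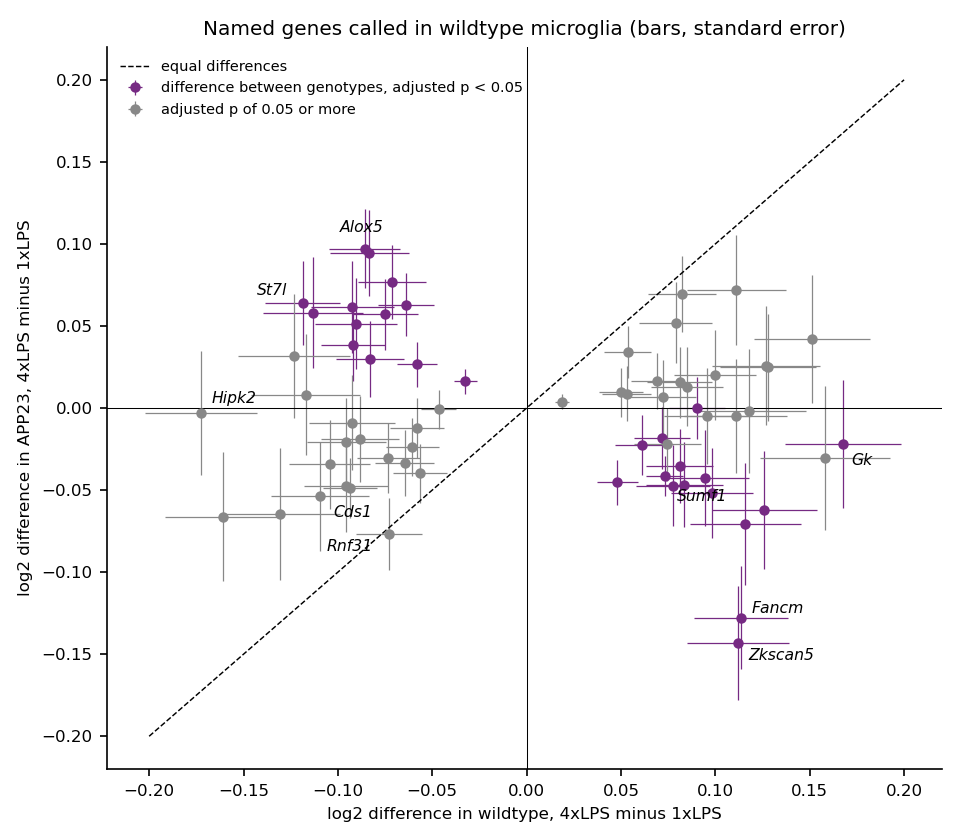
Difference between 4xLPS and 1xLPS in wildtype microglia (x axis, log2) against the same difference in APP23 microglia (y axis, log2) for the 67 named genes called in wildtype mice. Bars are standard errors, purple marks genes whose difference between genotypes passed at adjusted p under 0.05 with 33 degrees of freedom, and the dashed line marks equal differences. Alox5 lies in the upper left, Fancm and Zkscan5 in the lower right.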

How the data were processed

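Per the labels' protocols, RNA of sorted microglia (3 ng) was amplified and sequenced. Tools in the submitters' processing notes are STAR, HOMER, FastQC, limma and DESeq2, with mm10 as build, and their roles are not stated there. The deposited expression values were read as log2 units: per the sheet name, the authors put normalized log values through surrogate variable analysis. Which log base they used is not stated. Correction that fits group means can narrow the spread within groups, so p-values can be too small. Module names and the module correlation score per gene are those the authors deposited, per the file headers. The table held 10915 entries, 16 with symbols turned into dates that were not named, and 1 column that was not used: its name marks it as wildtype 4xLPS, but its number matches no label.

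The main test was limma 3.58.1 under R 4.3.3, with 1 mean per group (6 groups, 39 libraries) and a mean-variance trend. Two-sided p-values were Benjamini-Hochberg adjusted across the 10915 entries, and an adjusted p under 0.05 was called. No filter on low values and no pseudocount was applied. The alternative with 24 degrees of freedom took the 9 directions without residual variance as covariates. Exact permutation p-values were adjusted over all entries and not over the named genes. The fits were tested on simulated data. A limit on false calls was checked there for a table with all residual directions, and not for one with 9 removed. SE is that of limma. The labels do not say that each library came from its own mouse, and p-values therefore reflect variation among libraries, which may be technical. In the corrected values same-numbered libraries did not deviate together (correlations -0.0749 to 0.0553), and the numbers were not used to pair libraries. The correction can remove deviations that libraries share, so these correlations cannot show that libraries were unpaired.

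Named were the 12 largest rises and 12 largest falls among called entries, entries called with 24 degrees of freedom, up to 3 called members of a list, 3 genes by the difference between genotypes, and 18 genes whatever their result: Tlr4, Cd14, Tnf, Il1b, Ccl3, Ccl4, Tnfaip3, Nfkbia, Socs3, Cx3cr1, Tmem119, P2ry12, Trem2, Apoe, Clec7a, Itgax, Cst7 and Hif1a. Other genes named were chosen after their values were seen. The comparison and the 44 lists were chosen with earlier results of these data known. Gene coordinates are from GENCODE M21 (GRCm38), counted from 1, and promoter sequences from RefSeq (GRCm38.p6). Results of 1 gene that this rule names are not reported here.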

Additional observations from a re-analysis of the deposited data

Results flagged for a closer look

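A single library stood apart from the others of its group in 4 of 100 group values tested, a rate that chance alone gives for about 1 in 20. Zfp595 reached 8.644 in 4xLPS library 3, with the next at 8.486, and Ccl3 was highest in the same library, at 8.923 with the next at 8.867. Ubn1 was lowest in 4xLPS library 2, at 10.28 with the next at 10.41. Tlr4 was lowest in 1xLPS library 1, at 11.73 with the next at 11.8.

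The difference between 4xLPS and 1xLPS was itself different between wildtype and APP23 mice for 12 of 50 genes named by rule, beside 1.75% of all entries (limma with 33 degrees of freedom). Nothing is read from this count: Alox5, Cdc27 and Abcb1b were named for that difference, and others for their wildtype difference, which is one side of it. Wildtype minus APP23 was 0.2553 for Zkscan5 (adjusted p = 0.00289), 0.2413 for Fancm (adjusted p = 0.00241), 0.1895 for Gk (adjusted p = 0.0398), 0.1882 for Ubn1 (adjusted p = 0.0251), 0.1867 for Magi1 (adjusted p = 0.033), 0.1761 for Cdc27 (adjusted p = 0.00725), 0.1145 for Sumf1 (adjusted p = 9.6e-05) and 0.08366 for Trim36 (adjusted p = 0.0493). It was -0.1829 for Alox5 (adjusted p = 0.00241), -0.1827 for St7l (adjusted p = 0.00398), -0.1779 for Abcb1b (adjusted p = 0.00725) and -0.1712 for Trdmt1 (adjusted p = 0.0315). With 24 degrees of freedom Sumf1 alone of these passed (adjusted p = 0.0191). Cdc27, a subunit of the anaphase-promoting complex, was called in APP23 mice (-0.14, adjusted p = 0.00387) and not in wildtype mice (0.031, adjusted p = 0.49).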

How the results depend on the processing

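The counts of 35 higher and 37 lower genes, and of 191 genes whose difference was not the same in both genotypes, moved with the estimate of the spread. With the directions without residual variance as covariates (24 degrees of freedom) they were 1, 1 and 1. With the 15 libraries of the compared groups alone 16 were higher and 16 lower, and the difference between genotypes could not be fitted. With a replicate block, fitted although the corrected values showed no pairing by number, 15 were higher and 19 lower. In those values none of 6 replicate numbers correlated best with its own number. With the replicate block and the covariates together the counts were 14, 12 and 112. An exact permutation test, added after the data were seen, called 0 and 0, but its smallest possible p lets no single entry pass on its own. Leaving out 1 library gave 13 to 46 higher, 13 to 47 lower and 122 to 191 genes that differed between genotypes. The higher count changed by more than 1.5 times without 4xLPS library 6 (13), 1xLPS library 4 (19), 4xLPS library 1 (21), 4xLPS library 3 (22) or 4xLPS library 4 (22). The lower count did so without 4xLPS library 6 (13), 1xLPS library 4 (17), 4xLPS library 1 (17), 1xLPS library 7 (19), 4xLPS library 5 (22), 1xLPS library 8 (23) or 1xLPS library 9 (23), and the count between genotypes without 4xLPS library 6 (122). The cause was not tested. No trend, robust moderation, a filter at the lower quartile, the 24 wildtype libraries alone and median centring kept each of the counts they were run for within 1.5 times. Of 2023 pairs of a named gene and an alternative, 574 lost a call and 0 changed the direction of one. The pairs include genes not called in the main fit, which had no call to lose, so the share lost among called genes is higher. Direction had little room to change, since most alternatives use the same group means or leave out 1 library. Sumf1 and Cds1 passed in every alternative fit. Depth is unknown, so no limit from counting can be given.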
